A study of Rattus norvegicus with 6 samples.

Results

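The myogenic transcription factors examined here are the paired-box factors Pax3 and Pax7, the MyoD-family factors Myf5, Myf6, Myod1 and Myog, and the MEF2 factors Mef2a, Mef2c and Mef2d. They were taken by gene symbol from the platform annotation. It names 8 of these 9 genes, each with 1 probe set, among 18166 named genes on 36685 probe sets. No probe set was named Mef2a in the annotation used, so no array signal of Mef2a was analysed here.

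PAX factors mark muscle progenitors and keep them able to divide. MyoD-family factors are basic helix-loop-helix (bHLH) proteins that bind DNA with an E protein partner at a short element called the E-box: Myf5 and Myod1 commit a cell to the muscle lineage, Myog drives its terminal differentiation, and Myf6, also called MRF4, acts in differentiating and mature muscle. MEF2 factors bind an element rich in A and T, work together with the MyoD family on muscle genes, and are also used by other cell types, such as smooth muscle, neurons and lymphocytes.

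The cells were stem cells obtained by plating of male rat skeletal muscle, and their RNA was read on Affymetrix Rat Gene 2.0 ST arrays. The series has 6 arrays, 1 for each group: controls in high and in low glucose, cells given LZ or OZ serum, cells given cholesterol and cells given fatty acid. Cholesterol was given at 100 mg/dl with cyclodextrin as carrier, and sodium palmitate is the fatty acid that the labels name. The labels give no strain, age, passage, treatment time or serum content, do not spell out LZ and OZ, and do not say whether a control held cyclodextrin. With 1 array per group no value has an error and no test was possible, so each difference is one between single arrays. Precision is limited by having so few of them. Median intensity ran from 104.6 to 109.2, and the medians of all values lay at log2 6.71 to 6.77 on the 6 arrays.

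Promoter sequences of these genes were searched for letters of the kinds that MyoD-family and MEF2 factors bind. A match in letters does not show that a factor binds there. RefSeq promoter windows on build GRCr8 were matched for 6 of the 8 measured genes; Mef2c and Myod1 were not matched. Of each window, the 250 bases before the gene's start were searched on both strands for the E-box, CANNTG, and for a MEF2-type core made of CTA, then 4 bases that are each A or T, then TA. Among 33469 windows of this length, 65.5% held the E-box letters and 3.38% the MEF2-type core. The core was chosen after the sequences had been seen. Myog and Myf6 are shown because both hold the MEF2-type core, and Pax3 because its difference from the controls with fatty acid was the lowest after that of Mef2c. The Myog window is chr13:48297226-48297475 on the + strand, the Myf6 window chr7:44701314-44701563 on the - strand and the Pax3 window chr9:87112532-87112781 on the - strand. Each is written 5′ to 3′ along its gene, with the matches in capitals.
Myog: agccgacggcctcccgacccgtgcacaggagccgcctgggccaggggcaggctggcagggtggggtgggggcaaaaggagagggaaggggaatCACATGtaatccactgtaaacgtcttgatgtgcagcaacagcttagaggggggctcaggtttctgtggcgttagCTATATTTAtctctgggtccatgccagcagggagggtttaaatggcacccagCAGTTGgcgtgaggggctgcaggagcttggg
Myf6: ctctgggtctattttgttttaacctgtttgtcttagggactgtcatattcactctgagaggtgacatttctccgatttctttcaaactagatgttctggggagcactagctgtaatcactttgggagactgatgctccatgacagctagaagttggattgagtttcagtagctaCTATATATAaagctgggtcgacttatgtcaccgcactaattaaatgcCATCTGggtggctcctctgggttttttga
Pax3: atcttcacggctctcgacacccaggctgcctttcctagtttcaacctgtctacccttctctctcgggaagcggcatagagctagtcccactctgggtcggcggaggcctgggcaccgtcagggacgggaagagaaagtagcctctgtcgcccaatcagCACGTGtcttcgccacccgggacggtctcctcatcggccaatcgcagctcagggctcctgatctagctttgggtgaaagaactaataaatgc
In Myog the core begins 83 bases before the start and E-boxes begin at 157 and 31 bases before it. In Myf6 the core begins 76 bases before the start and an E-box 29 bases before it. Pax3 has a single E-box, 92 bases before its start, and no core in this window. No match overlapped another in these windows. The table also has a window for Mef2a, which no array value accompanies here: it holds overlapping matches to the core on opposite strands, 40 and 39 bases before the start, and no E-box. The windows of Pax7, Myf5 and Mef2d held neither set of letters, which says nothing of binding elsewhere.

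Against the array-wide median, 4 of the 8 genes lay above it on all 6 arrays: Pax3, Pax7, Mef2c and Mef2d. Myf6 lay above it on 4 arrays and Myog on 1, while Myf5 and Myod1 lay below it on every array. For comparison, 63.5% of named genes had a mean signal that reached the overall median, and 5 of the 8 factors did. Myf6 was the factor just inside this limit, at a mean log2 signal of 6.82, and Myog the factor just outside it, at 6.66. The array-wide median was taken over all 36685 probe sets, 17599 of them without a named gene. Over named genes alone the median was 7.57 to 7.63, and Pax7 (6.90 to 7.26) lay below it on every array. Against the median of probe sets with 1 gene, 3 of the 8 lay above on all 6 arrays. The share of named genes above the array-wide median on all 6 arrays was not counted. A median is a position on the array and not a limit of detection. Probe sets also differ in how brightly they read, so these positions do not order the factors by abundance.

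**Figure D1:**
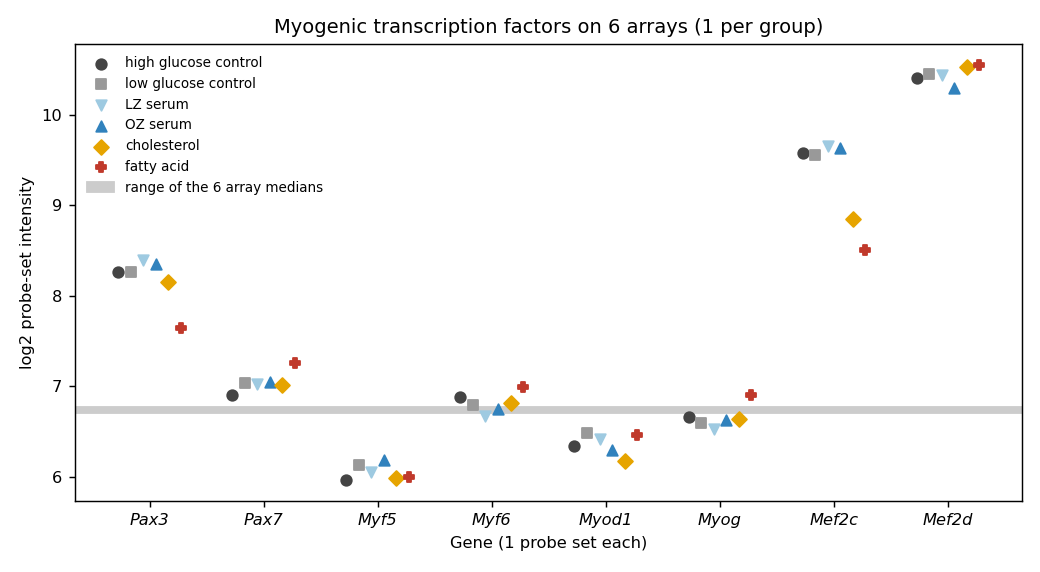
Log2 probe-set intensity (vertical axis) of the 8 measured myogenic transcription factors (horizontal axis), with 1 marker for each of the 6 arrays and a grey band for the range of the array medians, log2 6.71 to 6.77. Mef2c on the cholesterol (8.85) and fatty acid (8.50) arrays and Pax3 on the fatty acid array (7.64) stand below the other markers of the same gene.

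Of the PAX factors, Pax3 stood between percentiles 63.8 and 72.1 of the probe sets of each array and Pax7 between 53.0 and 58.7. The log2 signal of Pax3 was 8.26 in the high glucose control, 8.26 in the low glucose control, 8.39 with LZ serum, 8.35 with OZ serum, 8.16 with cholesterol and 7.64 with fatty acid. The fatty acid array was the low one: its intensity was 199.4, against 285.3 with cholesterol and 306.6 to 335.7 on the other arrays. The smaller of its log2 differences from the controls was -0.62, a 1.54-fold lower signal. This did not reach 2-fold, and 3.82% of named genes had a difference as low or lower. With cholesterol the difference of Pax3 was -0.10, smaller than the 0.13 that its signal spanned over the control and serum arrays.

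Pax7, the defining factor of satellite cells, the resident stem cells of muscle, had log2 signals of 6.90 and 7.04 in the high and low glucose controls, 7.03 with LZ serum, 7.05 with OZ serum, 7.02 with cholesterol and 7.26 with fatty acid. The fatty acid array was the highest of the 6, and the difference from the nearer control was 0.22. That is larger than the span of 0.15 over the control and serum arrays, but 16.2% of named genes differed upwards by as much or more.

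Of the MyoD family, no factor had a range of more than 0.38 on the log2 scale over the 6 arrays, where the median range of all named genes was 0.40. Myf5 ran from 5.96 in the high glucose control to 6.18 with OZ serum, and both lipid arrays (5.98 with cholesterol, 6.00 with fatty acid) lay inside that span. Myod1 ran from 6.17 with cholesterol to 6.48 in the low glucose control. The cholesterol array was the lowest for Myod1, 0.16 below the nearer control, and the fatty acid array (6.47) lay between the controls (6.34 and 6.48).

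Myog had log2 signals of 6.66 in the high glucose control, 6.59 in the low glucose control, 6.53 with LZ serum, 6.63 with OZ serum, 6.64 with cholesterol and 6.91 with fatty acid. Fatty acid was thus its highest array, 0.24 above the nearer control, or 1.19-fold on the linear scale, and the sole array on which Myog exceeded the median. For Myf6 the lowest array was LZ serum (6.67) and the highest fatty acid (6.99), the latter 0.10 above the nearer control (6.89, high glucose).

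Mef2c had the widest range of the 8 factors. Its log2 signal was 9.58 in the high glucose control, 9.56 in the low glucose control, 9.65 with LZ serum, 9.63 with OZ serum, 8.85 with cholesterol and 8.50 with fatty acid. The control and serum arrays lay within 0.09 of each other, a span narrower than that of 93.0% of named genes, and both lipid arrays lay below all of them. On the linear scale its intensity was 754.6 to 804.2 on those 4 arrays, 462.0 with cholesterol and 362.4 with fatty acid. The range over all 6 arrays was 1.15, or 2.22-fold, and 4.01% of named genes had a wider one.

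Against both controls, Mef2c was 2.08-fold lower with fatty acid, at log2 differences of -1.08 from the high and -1.06 from the low glucose control. It was 1.63-fold lower with cholesterol, at -0.73 and -0.71. These comparisons share their controls. Few genes were lower by as much: 1.17% of named genes with fatty acid and 1.02% with cholesterol. With an offset of 32 added before log2, the fatty acid difference of Mef2c was -0.996, just under 2-fold. As RNA was taken from whole cultures, fewer cells that hold Mef2c and less Mef2c RNA in each cell cannot be told apart.

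Mef2d ran over 0.26 on the log2 scale. Its signals were 10.40 and 10.44 in the high and low glucose controls, 10.44 with LZ serum, 10.29 with OZ serum, 10.52 with cholesterol and 10.55 with fatty acid. Both lipid arrays were its highest, by 0.08 and 0.11 over the nearer control, while OZ serum was its lowest. The differences of Mef2d and Mef2c thus had opposite signs on both lipid arrays. Those of Mef2d were smaller than the 0.15 spanned by its control and serum arrays, though both lipid arrays lay above that span.

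**Figure D2:**
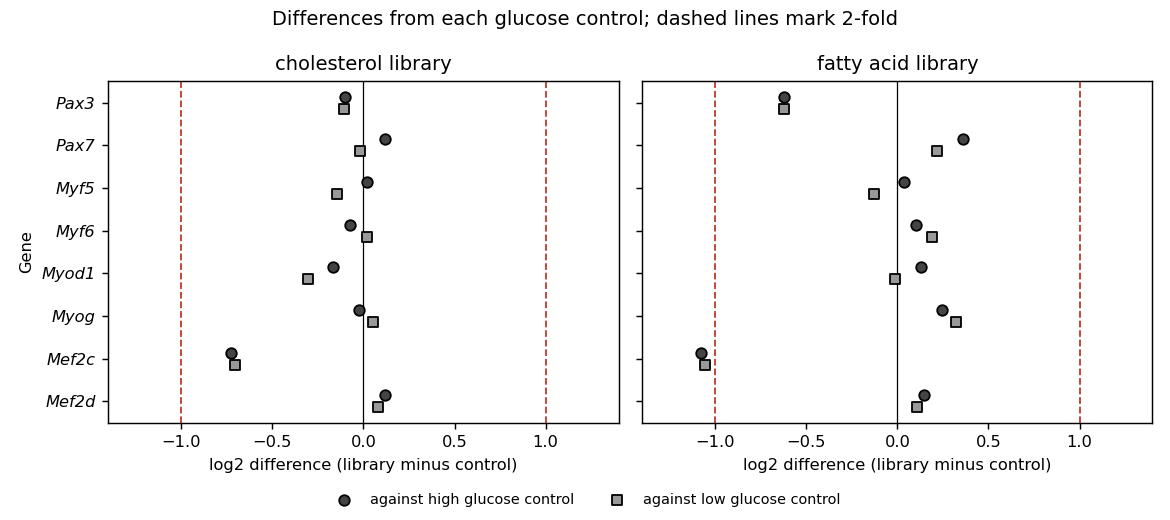
Log2 difference of the cholesterol array (left) and the fatty acid array (right) from the high (circles) and low (squares) glucose control for each of the 8 factors; dashed lines mark 2-fold. Mef2c with fatty acid (-1.08 and -1.06) is the only pair of points past a dashed line, and Pax3 with fatty acid (-0.62 and -0.62) and Mef2c with cholesterol (-0.73 and -0.71) are the next.

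Counted at 2-fold or more against both controls, 1 of the 8 factors was lower with fatty acid (Mef2c) and none was higher, where 1.33% of all named genes were lower and 0.495% higher. With cholesterol none of the 8 reached 2-fold, where 0.523% of all named genes were lower and 0.275% higher. Without a limit on size, 4 factors (Pax7, Myf6, Myog and Mef2d) were above both controls with fatty acid and 2 (Pax3 and Mef2c) below, against 44.0% and 34.2% of named genes. With cholesterol 1 (Mef2d) was above and 3 (Pax3, Myod1 and Mef2c) were below, against 34.5% and 34.8%. The factors named here kept their sign after quantile normalization, centring on the median and cyclic loess, but the cholesterol count depended on the scaling. With cholesterol 6 factors were below both controls after quantile normalization and after centring, with Myf5, Myf6 and Myog added, and 5 after cyclic loess, with Myf5 and Myf6 added. These added differences were small, the lowest being -0.05 (Myf6, centred). On the fatty acid array Myf5 was also added below both controls after cyclic loess (-0.03). The median over the 8 factors was 0.11 and 0.05 against the high and low glucose controls with fatty acid, and -0.05 and -0.06 with cholesterol, beside 0.04, 0.03, 0.00 and -0.01 for all named genes.

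Set directly against each other, the lipid arrays differed by less than 2-fold in all 8 factors, where 1.31% of named genes were at least 2-fold higher with cholesterol and 0.727% lower. Pax3 was 0.52 and Mef2c 0.35 higher with cholesterol than with fatty acid. The other 6 were lower with cholesterol, with differences from -0.02 (Myf5) to -0.29 (Myod1), except that Myf5 was higher after cyclic loess. Of all named genes 46.2% were higher and 53.7% lower in this comparison.

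Differences by glucose level and serum were small. The high and low glucose controls differed by at most 0.17 on the log2 scale (Myf5), and 40.8% of named genes differed by as much or more; at 2-fold, 0.193% of named genes were higher and 0.0991% lower in high glucose. OZ and LZ serum differed by at most 0.15 (Mef2d, lower with OZ serum), where 34.3% of named genes differed by as much; 0.0495% of named genes were 2-fold higher and 0.0330% lower. Against both controls, Pax3 was higher in both serum arrays by at least 0.09 and Mef2c by at least 0.05, and Myf6 was lower by at least 0.04, 2 factors higher and 1 lower, beside 13.5% and 17.7% of named genes. Myog was also lower in both after quantile normalization and centring, which makes 2 lower. No named gene reached 2-fold in that comparison.

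The factors upstream of or beside the PAX and MyoD families were measured for 16 of 21 listed genes. Where 1.33% of named genes were 2-fold lower with fatty acid and 0.495% higher, 1 of 16 was lower and none higher. This was Eya1, a coactivator of homeobox factors in muscle progenitors, whose log2 signal was 8.19 with fatty acid and 9.13 with cholesterol, against 10.14 and 9.58 in the high and low glucose controls, 9.90 with LZ serum and 9.97 with OZ serum. Eya1 was 2.63-fold below the nearer control with fatty acid and 1.37-fold with cholesterol, and its controls themselves differed by 0.56. The list's median difference with fatty acid was 0.07 and 0.08 against the high and low glucose controls. With cholesterol none of the 16 reached 2-fold, and the largest difference was that of Msc, a bHLH repressor also called musculin (-0.48).

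The partners and inhibitors of the MyoD family were measured for 22 of 23 genes, and none was 2-fold different from both controls with either lipid. The E proteins, with which MyoD-family factors pair, showed small differences with fatty acid: -0.34 for Tcf3, -0.04 for Tcf12 and 0.10 for Tcf4. With fatty acid 15 of the 22 genes lay below both controls and 5 above, beside 34.2% and 44.0% of named genes, and the list's median was -0.19 and -0.34. The Id proteins, which bind E proteins and keep them from pairing, were picked out of this list after their values were seen. All 4 lay below both controls with fatty acid: Id3 by -0.76, Id2 by -0.72, Id4 by -0.51 and Id1 by -0.43. For Id3 the signal was 9.24 with fatty acid, against 10.67 in the low glucose control, 10.11 and 9.93 with LZ and OZ serum and 10.31 with cholesterol. The nearer control of Id3, from which its difference of -0.76 was taken, was the high glucose one, which itself differed from the low glucose control by -0.67. With cholesterol 3 of the 4 (Id1, Id2 and Id4) lay above both controls, by 0.04 to 0.28 (2 of the 4 after centring), beside 34.5% of named genes. Id2 was 1.20 and Id3 1.07 higher with cholesterol than with fatty acid.

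Coregulators of MEF2 and of SRF, a related factor, were measured for 26 of 33 genes. With fatty acid 1 was 2-fold higher and none lower, where 0.495% of named genes were higher and 1.33% lower. Vgll2, a cofactor of TEAD and MEF2 factors known from skeletal muscle, had a signal of 7.24 with fatty acid against 5.78 and 6.10 in the controls and 5.72 with cholesterol, a 2.21-fold difference. Vgll2 exceeded the array median on the fatty acid array alone, and its difference was 0.87, under 2-fold, with an offset of 32. The class IIa deacetylases, which bind and repress MEF2 factors, did not share a direction: with fatty acid Hdac5 was at -0.75 and Hdac7 at -0.31, while Hdac4 was within 0.01 of the nearer control. Myocd (myocardin), an SRF cofactor of smooth and cardiac muscle, was at -0.69 with cholesterol and -0.34 with fatty acid, with controls that differed by 0.53. The list's median was -0.12 and -0.18 with fatty acid and -0.04 and -0.03 with cholesterol.

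Muscle differentiation genes, many of which MyoD-family and MEF2 factors bind, were measured for 63 of 80 genes. Of these, 24 had a mean signal that reached the overall median, against 63.5% of named genes. On all 6 arrays 18 lay above the array-wide median and 32 below it, and the shares of named genes that did so were not counted. Among the 18 above were Tnnt3, a troponin of fast muscle (6.99 to 7.26), Actn3, an actinin of fast muscle (7.15 to 7.39), and Mb, myoglobin (7.07 to 7.24). Tnnt3, Actn3 and Mb nevertheless lay below the median of named genes alone (7.57 to 7.63) on every array. Among the 32 below the array-wide median were Mymk, a membrane protein of myoblast fusion (5.76 to 6.43), Myh8, a perinatal myosin heavy chain (4.80 to 5.06), and Myl1, a myosin light chain (5.11 to 5.35). With fatty acid 3 of 63 were 2-fold lower and none higher, and with cholesterol 1 was lower and none higher. Among named genes 1.33% were lower and 0.495% higher with fatty acid, and 0.523% and 0.275% with cholesterol.

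Acta1, the skeletal muscle actin, had a signal of 8.43 with fatty acid and 9.55 with cholesterol, against 10.86 and 10.50 in the controls and 10.78 and 10.58 with LZ and OZ serum. As for Mef2c, both lipid arrays were its lowest, with fatty acid below cholesterol, but the order of the other arrays differed. Listed genes such as Eya1, Casq2, Itga8, Actg2 and Col3a1 also had both lipid arrays lowest and fatty acid below cholesterol. Acta1 was 4.21-fold below the nearer control with fatty acid and 1.93-fold with cholesterol. Casq2, a calsequestrin that binds calcium in the sarcoplasmic reticulum, was 3.75-fold lower with fatty acid and 3.57-fold lower with cholesterol (6.84 and 6.91 against 8.75 in each control). Eno3, the muscle enolase of glycolysis, was 2.66-fold lower with fatty acid, while its cholesterol signal (10.27) lay between the controls. All other measured genes of the list differed from the nearer control by less than 2-fold with fatty acid, and the list's median was 0.01 and -0.02.

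**Figure D3:**
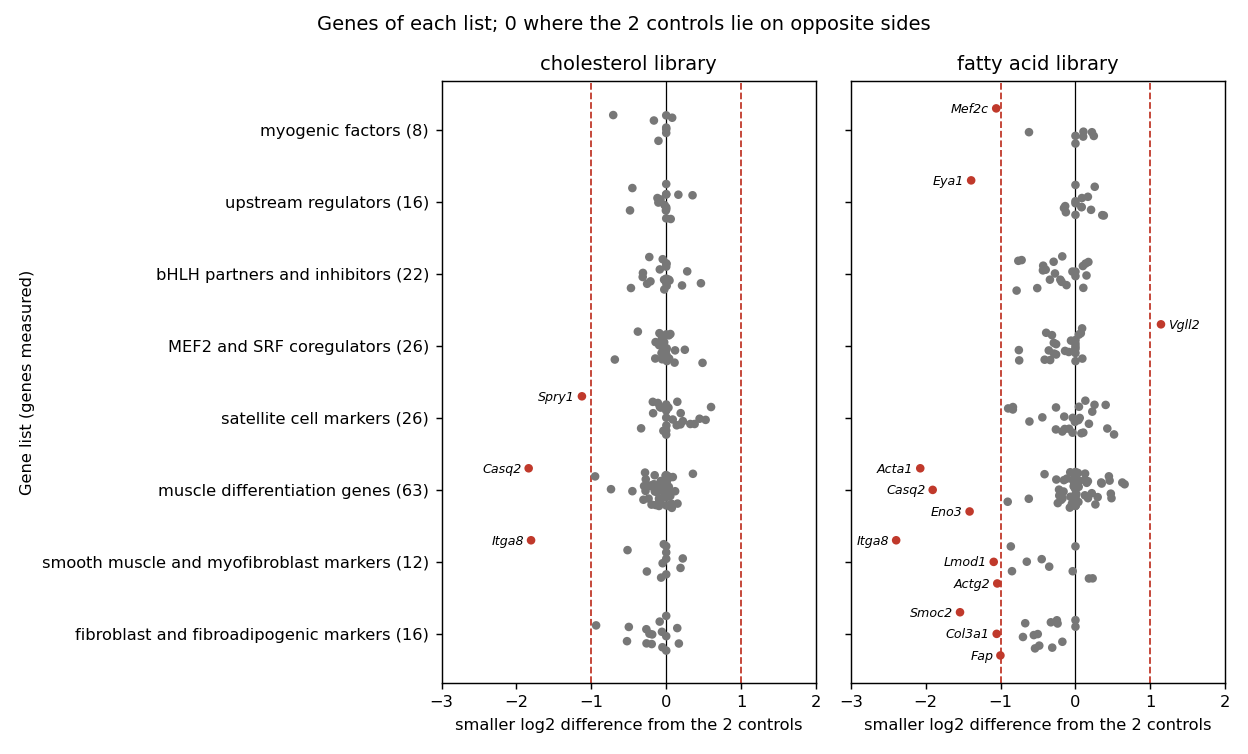
Log2 difference of the cholesterol array (left) and the fatty acid array (right) from the nearer control for each gene of 8 lists, drawn at 0 where the controls lie on opposite sides; dashed lines mark 2-fold, genes past them are named and the number measured stands after each list. On the fatty acid array Mef2c (-1.06), Eya1 (-1.39), Acta1 (-2.07), Casq2 (-1.91) and Eno3 (-1.41) lie past the lower line. So do the smooth muscle and myofibroblast markers Itga8 (-2.39), Lmod1 (-1.09) and Actg2 (-1.04). The fibroblast and fibroadipogenic markers Smoc2 (-1.54), Col3a1 (-1.05) and Fap also lie past it, Fap only just. Vgll2 (1.14) lies past the upper line, and points are spread vertically only to keep them apart.

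The cells, described as stem cells obtained by plating of skeletal muscle, were checked against satellite cell markers. Of 26 measured, 20 had a mean signal that reached the overall median, beside 63.5% of named genes. Among the 20 were Ncam1 (11.37 to 12.43) and Met (10.25 to 10.60), which are not particular to muscle. Above the median on all 6 arrays lay 18 of the 26, among them Itga7 (an integrin, at least 7.47), Chrdl2 (7.14 to 7.57), Des (desmin, 6.83 to 7.05), Fgfr4 (6.85 to 7.02) and Sox8 (6.83 to 6.90), as did Pax7. Below it on all arrays lay 4: Cdh15 (M-cadherin, 5.90 to 6.11), Calcr (the calcitonin receptor, 5.34 to 5.67), Vcam1 (5.36 to 6.00) and Cxcr4 (6.04 to 6.58). The shares of named genes above or below the array-wide median on all 6 arrays were not counted. Chrdl2, Des, Fgfr4, Sox8 and Pax7 lay below the median of named genes (7.57 to 7.63) on every array. Itga7 lay below that median with OZ serum, cholesterol and fatty acid. None of the 26 was 2-fold different from both controls with fatty acid, and with cholesterol 1 was, Spry1, an inhibitor of growth factor signalling (2.18-fold lower). Of named genes 0.523% were 2-fold lower with cholesterol.

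Most markers of fibroblasts and of smooth muscle and myofibroblasts lay above the median, and some of them were low together with Mef2c. Of 16 fibroblast and fibroadipogenic markers, 15 had a mean signal at or above the median, beside 63.5% of named genes. Col1a1 stood at 12.87 to 13.69 and Thy1 at 13.17 to 13.51. With fatty acid 14 of the 16 lay below both controls and 3 by 2-fold or more (Smoc2 -1.54, Col3a1 -1.05 and Fap, 2.00-fold lower), beside 34.2% and 1.33% of named genes. The summed intensity of the 16 was 49033 against 69904 and 68791 in the controls, 70842 and 66487 with the sera and 59200 with cholesterol. Of 12 smooth muscle and myofibroblast markers, 11 had a mean signal at or above the median. With fatty acid 9 of the 12 lay below both controls and 3 by 2-fold or more (Itga8 -2.39, Lmod1 -1.09 and Actg2 -1.04), beside the same shares of named genes. The summed intensity of the 12 was 24049 against 31594 and 32535 in the controls, 33425 and 32449 with the sera and 30122 with cholesterol. With cholesterol 1 of these 12, Itga8 (-1.80), and none of the 16 fibroblast markers was 2-fold lower, beside 0.523% of named genes. Fap was under 2-fold with fatty acid after quantile normalization (-0.98), with an offset of 32 (-0.90) and with the serum arrays as further references (-0.72). The call for Col3a1 was lost with those further references (Col3a1 at -0.87). The part of these cells in the low Mef2c and Pax3 signals was not tested.

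Pericyte markers were lower in sum with fatty acid: 4 of 7 lay below both controls and 2 above, beside 34.2% and 44.0% of named genes. The summed intensity of the 7 was 7344 against 10847 and 10864 in the controls, 11538 and 10282 with the sera and 11526 with cholesterol. Most of that gap was Pdgfrb, a growth factor receptor, whose intensity was 3648 with fatty acid and 6838 and 6547 in the controls. The other 6 summed to 3695 with fatty acid against 4009 and 4317 in the controls and 3798 with OZ serum. Of 5 endothelial markers none had a mean signal at or above the median, and of 8 macrophage and leukocyte markers 2 did (Cd68 and Cd14), while Ptprc, the pan-leukocyte CD45, stood at 5.42 to 5.59. Of 7 pericyte, 5 Schwann cell and 8 adipocyte and tenocyte markers, 4 each had a mean signal at or above the median, beside 63.5% of named genes. In these 5 lists no gene was 2-fold different from both controls with fatty acid. With cholesterol only Cd68 was (2.94-fold higher), beside 0.275% of named genes that were 2-fold higher.

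Mef2c was the only factor with a range of 2-fold or more over the arrays, and the genes with the most similar profile were found for it. Among 863 other genes with a mean signal at or above the median and a range of 2-fold or more, the highest Pearson correlations of log2 signal over the 6 arrays were those of Naaladl2, a peptidase-like protein (r = 0.996), Prkg1, a cGMP-dependent protein kinase of smooth muscle (0.996), and Rassf4, a Ras association domain protein (0.996). Prkg1 had signals of 9.49 and 9.54 in the high and low glucose controls, 9.57 and 9.63 with LZ and OZ serum, 8.89 with cholesterol and 8.46 with fatty acid. Rassf4 stood at 6.87 with fatty acid and 7.47 with cholesterol against at least 8.29 on the others. The points share their arrays, 15 genes had r above 0.99, and Rassf4 was not among the highest 3 after quantile normalization, centring or cyclic loess. With 6 arrays of which 4 are alike, such a correlation mostly records 2 low arrays and is a description only.

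**Figure D4:**
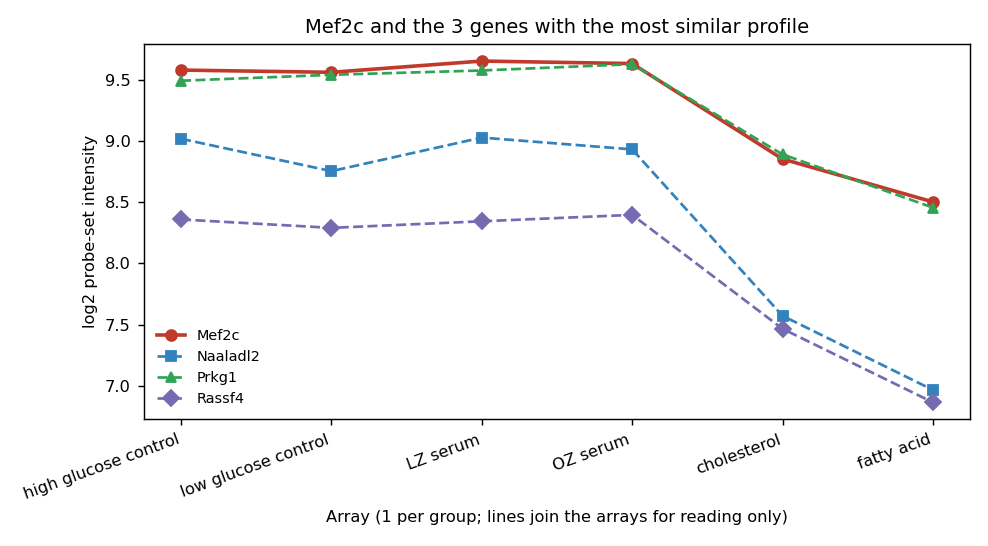
Log2 probe-set intensity (vertical axis) of Mef2c and of the 3 genes with the highest Pearson correlation with it, on each of the 6 arrays (horizontal axis); lines only join the markers of a gene. All 4 genes are lowest with fatty acid (8.50 for Mef2c) and next lowest with cholesterol (8.85 for Mef2c), and nearly level on the control and serum arrays (9.56 to 9.65 for Mef2c).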

How the data were processed

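RNA of 6 cultures was read on 1 Affymetrix Rat Gene 2.0 ST array each, per the labels' protocols. The authors deposited a linear intensity for each probe set. How it was summarised and normalized is not given in the sources used here. Array distributions were nearly equal, so the values were used as scaled, and log2 was taken without an offset. The platform annotation gives 1 gene for 18511 of 36685 probe sets, several for 575 and none for 17599; only the first kind was used. For 291 genes with more than 1 probe set the brightest by mean was kept, which left 18166 genes. A RefSeq table held 18394 of the Entrez identifiers, those of the 8 factors included.

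A difference from several reference arrays is the smallest log2 difference if all have the same sign, and 0 otherwise; 2-fold or more was counted. No filter on signal was applied to the factors. The background percentages are over all 18166 genes. Gene lists (upstream regulators, bHLH partners and inhibitors, MEF2 and SRF coregulators, satellite cell, muscle differentiation and 7 lists of other cell markers) are described by counts and medians. Named are all factors, up to 4 genes per list at least 2-fold different with either lipid, markers used in the cell type check, and the 3 genes most like each factor whose range was 2-fold or more. Other list genes named (Msc, the E and Id proteins, deacetylases, Myocd, and examples above or below the median) were picked with their values in view. The factors and lists were chosen with earlier results of these data known. Simulated data were used to test the counting. The alternatives tried were cyclic loess, quantile normalization, median centring, an offset of 32, a 1.5-fold threshold, a signal filter, averaging probe sets, other reference arrays and, for the median, the 75th percentile or named probe sets only. Analyses used R 4.3.3 with limma 3.58.1 and Python 3.11.15 with pandas 2.3.3, numpy 2.4.6 and matplotlib 3.10.9.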

Additional observations from a re-analysis of the deposited data

How the results depend on the processing

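Of 12 reported counts of factors at 2-fold, 11 were 0, so that agreement between settings says little of them. The count of factors above the limit on all arrays was 1 in place of 4 when the 75th percentile replaced the median. It was 3 when the median was taken over probe sets with 1 gene. At 1.5-fold, 1 factor was lower with cholesterol (Mef2c) in place of 0, and 2 were lower with fatty acid (Mef2c and Pax3) in place of 1. With an offset of 32 before log2, 0 were lower with fatty acid. Counts without a limit on size were recomputed under the scalings, the offset and probe-set averaging, chosen after seeing the data: 6 factors were below both controls with cholesterol after quantile normalization, 6 after centring and 5 after cyclic loess, in place of 3, and 2 were below both controls in both sera after quantile normalization and 2 after centring, in place of 1. The other 35 of these 40 counts were within 1.5 times of the reported ones. For Mef2c with fatty acid the scalings gave -1.02 after quantile normalization, -1.11 after centring and -1.05 after cyclic loess. Under the scalings and the offset the median difference over all genes was at most 0.07 in size in any comparison. Acta1 reached 2-fold with cholesterol after centring (-1.01) and against the high glucose control alone (-1.31), and Eya1 against the high glucose control alone (-1.01). Actg2 was under 2-fold with fatty acid under the offset (-0.94). The causes were not tested. Factors near the array median cannot be separated from background here, since no background values were used. No paired analysis was possible because each group holds 1 array.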
